A study of Mus musculus with 16 samples.

Results

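The genes described here are 10 members of the hypoxia response in mouse kidney, namely the oxygen-regulated transcription factor subunits Hif1a, Epas1 and Hif3a, the oxygen sensors Egln1 and Egln3, and the targets Vegfa, Adm, Bnip3, Ankrd37 and Car9. They were taken by symbol from a table of 57186 genes, and each of the 10 symbols occurred once. RNA of whole kidney was sequenced from 16 male mice, with 4 libraries in each of 4 groups. All 16 mice were Elmo1H/H on a C57BL/6J background, which means that they overexpressed Elmo1, an activator of Rac1, from both alleles, so no group had normal Elmo1. The non-diabetic groups were Elmo1H/HIns2+/+, and the diabetic groups were Elmo1H/HIns2Akita/+, in which misfolded proinsulin destroys pancreatic beta cells and leaves the animals short of insulin from a young age. ND and D denote the untreated non-diabetic and diabetic groups. ND+B12 and D+B12 denote the groups given vitamin B12 in the drinking water at 10 mg/kg per day from 8 weeks of age. The treatment lasted 8 weeks by the methods and 16 weeks by the labels, and kidneys were taken at 16 weeks of age in the later part of the light phase. Library numbers follow the group name, as in ND 3. The question addressed was whether the transcripts of this pathway differed with diabetes, with B12 and with their combination.

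Cells sense oxygen through prolyl hydroxylases that mark the alpha subunits of the hypoxia-inducible factors (HIF) for destruction by the VHL ubiquitin ligase when oxygen is plentiful. When oxygen falls the alpha subunits persist, pair with ARNT and switch on genes for glycolysis, blood vessel growth, pH control and mitophagy. In the kidney HIF-1α is found mainly in tubule cells, whereas HIF-2α, the product of Epas1, is known from endothelial and interstitial cells. The alpha subunits are controlled largely at the level of the protein, which was not measured here.

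HIF binds the core letters ACGTG or GCGTG, and the members' promoters are shown to place these letters before the genes whose levels are described. In the 250 bases before the start site, all 9 members found in the RefSeq promoter table (GRCm38.p6) held one of these on either strand, against 11226 of 27025 genes in the table (41.5%). Counted by promoter the share was 38.6% of 32851. Vegfa held a match in 1 of its 2 promoters alone, the downstream one at chr17:46025164-46025413 (-). Its upstream promoter, at chr17:46032378-46032627 (-), held none. Vegfa thus counts among the 9 through the downstream stretch alone, which lies after the gene's upstream start site. The palindrome CACGTG, the E-box read by the clock factors CLOCK and BMAL1 and overlapping ACGTG on both strands, was found in Hif1a and Bnip3 and in 6.02% of all promoters. A match is a description of letters and not a bound site. The sequences run 5′ to 3′ on the strand of the gene and end at the base before the start, with the matching letters, or their reverse complements CACGT and CACGC, in capitals. Car9 held a single match, 18 bases before the start at chr4:43506776-43507025 (+), Egln3 held a single match 229 bases before the start at chr12:54203875-54204124 (-), Bnip3 held 5 overlapping or separate matches at chr7:138909507-138909756 (-), and Hif1a held 3 at chr12:73907617-73907866 (+).
Car9: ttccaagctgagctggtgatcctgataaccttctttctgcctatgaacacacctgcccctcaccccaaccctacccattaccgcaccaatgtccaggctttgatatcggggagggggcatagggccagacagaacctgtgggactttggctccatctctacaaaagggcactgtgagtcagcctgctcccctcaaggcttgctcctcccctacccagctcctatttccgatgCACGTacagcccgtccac
Egln3: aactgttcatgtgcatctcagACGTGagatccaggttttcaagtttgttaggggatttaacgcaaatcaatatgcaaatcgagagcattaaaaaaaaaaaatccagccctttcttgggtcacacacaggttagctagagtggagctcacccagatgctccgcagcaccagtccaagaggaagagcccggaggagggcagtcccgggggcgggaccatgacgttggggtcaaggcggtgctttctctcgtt
Bnip3: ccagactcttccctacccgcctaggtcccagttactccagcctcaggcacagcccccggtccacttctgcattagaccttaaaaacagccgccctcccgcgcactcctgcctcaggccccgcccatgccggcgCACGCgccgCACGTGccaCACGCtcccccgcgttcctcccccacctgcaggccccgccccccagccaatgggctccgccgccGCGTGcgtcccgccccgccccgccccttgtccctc
Hif1a: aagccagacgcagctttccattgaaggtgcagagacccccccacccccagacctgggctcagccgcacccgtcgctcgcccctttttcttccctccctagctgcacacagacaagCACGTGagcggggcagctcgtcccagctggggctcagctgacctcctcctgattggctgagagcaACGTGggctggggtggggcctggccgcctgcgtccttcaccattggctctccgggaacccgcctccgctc

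The total estimated count per library ran from 65271308 to 91771136. Kidney markers were abundant, and the summed normalized count of 6 proximal tubule markers ran from 804919 to 1086940 while the adrenal marker Cyp11b1 was at 0 in every library. Adipocyte RNA differed between libraries within groups, with Plin1 at 0 to 1810.0 normalized counts and highest in ND 3, D 1 and D+B12 2 (the adipocyte-rich libraries). The library names carry 10 dates of unstated meaning, 2 of which hold libraries of 2 groups. No date holds both ND and D, both ND+B12 and D+B12, or both D and D+B12. Date therefore cannot be told apart from diabetes within either treatment, nor from treatment in the diabetic kidneys.

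The labels were checked against a table of group means that accompanies the data. For 175 genes, each tabulated mean was matched by another set of 4 libraries than the 4 labelled for that group, out of 1820 possible sets, with a median difference of 0.000156 to 0.000261 on the log2 scale against 0.0378 to 0.293 for the labelled sets. By those means, 11 libraries belong to another group than their label says, 10 of them to the other treatment, and the libraries labelled D+B12 are the 4 tabulated as untreated diabetic. Genotype was affected in 2 libraries alone, ND+B12 4 and D 1, which are set in the other genotype. The labels were kept for every comparison. Each comparison that separates the treatments, including diabetes within untreated or B12-treated kidneys and the interaction, therefore holds for the libraries as labelled. By those means D 2, D 3 and D 4 are B12-treated diabetic kidneys. Comparisons are also given without ND+B12 4 and D 1, which removes the doubt on genotype and not that on treatment.

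Per kilobase of main transcript, Epas1 had the highest mean normalized count over the 16 libraries, at 3678, followed by Vegfa at 3564, Bnip3 at 2089.8, Egln1 at 1176, Hif1a at 1045, Egln3 at 886, Adm at 296, Car9 at 239, Ankrd37 at 71.5 and Hif3a at 29.4. The neighbours Epas1 and Vegfa overlapped in their ranges over libraries, from 3036 to 4073 and from 3011 to 4076. Within a gene, the highest library exceeded the lowest by 1.29-fold for Egln1, 1.34-fold for Epas1 and 1.35-fold for Vegfa, and by 3.64-fold for Car9 and 4.79-fold for Hif3a. The steadiest members were thus the sensor Egln1 and the abundant transcripts Epas1 and Vegfa, and the most variable were Car9 and the scarce Hif3a. Depth was ample for 8 members, and the lowest raw count in a library was 31 for Ankrd37 and 65 for Hif3a, so counting error adds to the spread of both.

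**Figure D1:**
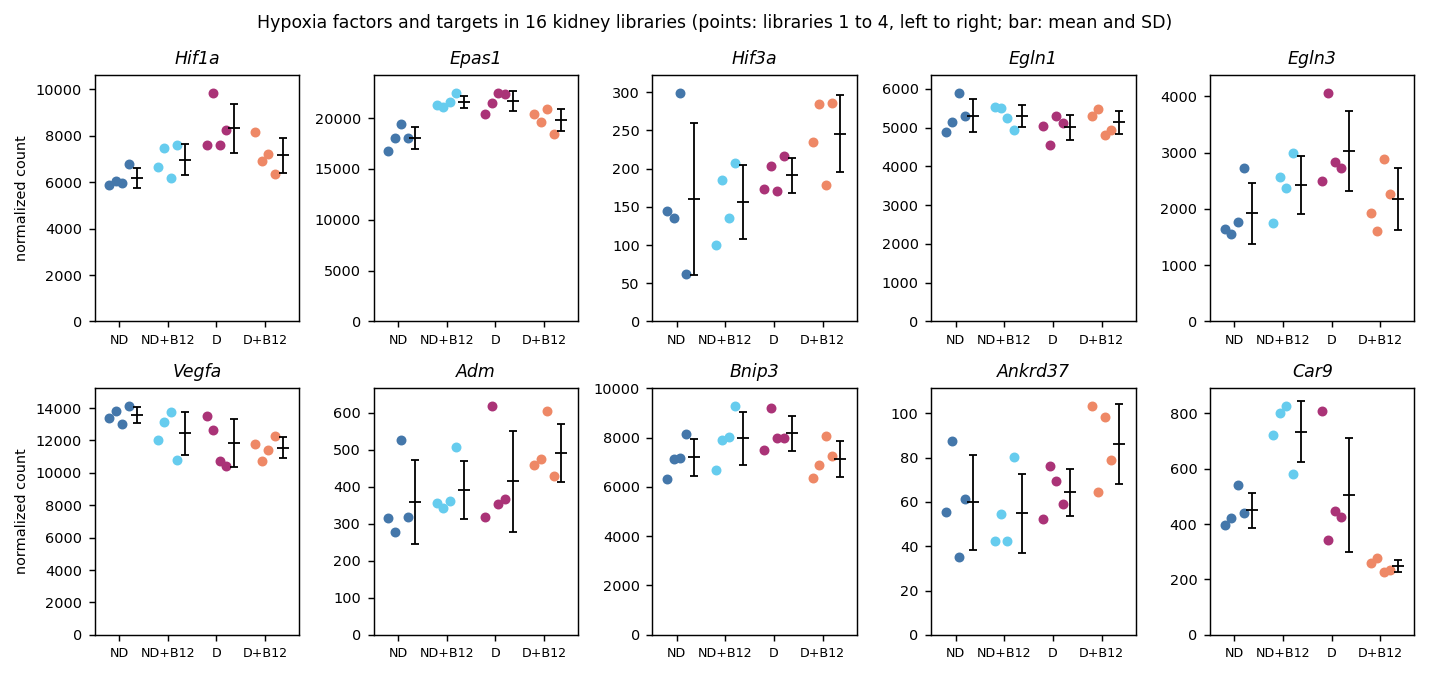
Normalized count (vertical axis, from 0) of each member in the 16 kidney libraries by labelled group (ND, ND+B12, D and D+B12 on the horizontal axis); points are libraries 1 to 4 from left to right, and the black mark and bar give the mean and SD of 4 libraries. The 4 D+B12 libraries of Car9 lie between 227 and 276 normalized counts, below the other 12, and the 4 D libraries of Hif1a lie between 7593 and 9850.3, above all 4 ND libraries.

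In untreated kidneys 2 of the 10 members, Hif1a and Epas1, were higher with diabetes and none was lower, at an adjusted p below 0.05 in the edgeR quasi-likelihood test. Over all 25408 genes tested, 1.66% were called in that comparison, 0.937% higher and 0.728% lower. An unadjusted p below 0.05 was reached by 4 of the 10 members and by 18.6% of genes. In B12-treated kidneys 1 member, Car9, was lower with diabetes and none was higher, against 0.823% of genes called, 0.563% lower and 0.26% higher, and 3 members reached the unadjusted level, against 17% of genes. B12 gave no called gene among the 25408 in either genotype, while an unadjusted p below 0.05 was reached by 1937 genes (7.62%) in non-diabetic and 3468 (13.6%) in diabetic kidneys. Of the 10 members, 2 reached that unadjusted level in non-diabetic kidneys and 4 in diabetic kidneys, and DESeq2 called 6 genes, Epas1 among them, in the first and 681 genes, Car9 among them, in the second. Over both genotypes B12 gave no called gene in edgeR and 6 in DESeq2, with 5.2% of genes and 0 members at an unadjusted p below 0.05. For the interaction edgeR called no gene, while 16.1% of genes and 5 members reached that level.

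**Figure D2:**
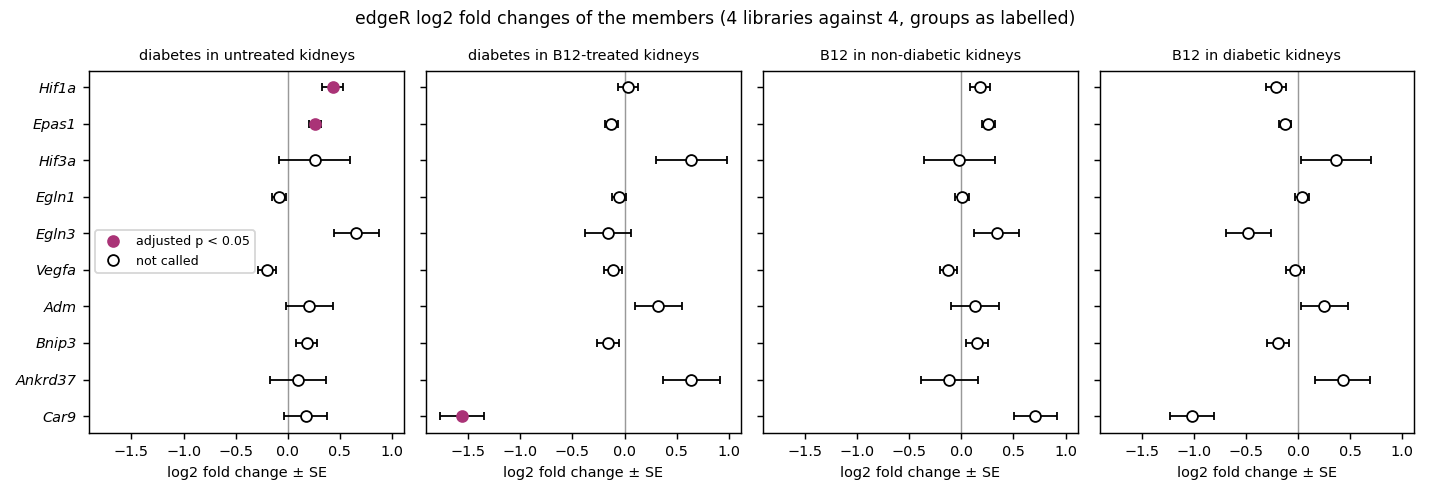
Log2 fold change with its standard error (horizontal axis) of each member (vertical axis) in the 4 pairwise comparisons of labelled groups, 4 libraries against 4, from 1 edgeR fit over 16 libraries; filled points have an adjusted p below 0.05. Filled points are Hif1a at 0.43 and Epas1 at 0.26 with diabetes in untreated kidneys and Car9 at -1.56 with diabetes in B12-treated kidneys.

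Hif1a (chr12:73948149-73996321, + strand, GRCm39) encodes HIF-1α, the subunit that drives most of the glycolytic hypoxia response. Its normalized counts were 5859.6, 6038, 5985 and 6791 in ND and 6641, 7489, 6186 and 7583 in ND+B12. They were 7593, 9850.3, 7597 and 8235 in D and 8141, 6931, 7229 and 6337 in D+B12. Every D library was above every ND library, and the other neighbouring groups overlapped. The mean was 8319 ± 1065 in D and 6168 ± 422 in ND (SD, n = 4), a log2 fold change of 0.43 (SE 0.10, adjusted p = 0.0429 in edgeR) or 1.35-fold. In B12-treated kidneys the difference with diabetes was 0.03 (SE 0.10, adjusted p = 0.898 in edgeR), and the difference between these effects was -0.40 (SE 0.14, adjusted p = 0.173). The log2 fold change in untreated kidneys kept its sign under all 26 alternatives, with an adjusted p of 0.00186 to 0.121, and was called in 13. It was no longer called without any 1 of ND 1, ND 2, ND 3, ND+B12 2, D 2, D 3, D 4 or D+B12 2, where the log2 fold change was 0.34 to 0.47 and the adjusted p at most 0.121. The call was also lost with the filter of 1 count (0.0711), the replicate block (0.0547), the compared groups alone (0.0606), the name date (0.112) and without the adipocyte-rich libraries (0.0641). Between the diabetic groups Hif1a differed by -0.21 with B12 (SE 0.10, adjusted p = 0.346 in edgeR).

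Epas1 (chr17:87061087-87140838, + strand, GRCm39) encodes HIF-2α, which controls erythropoietin and many endothelial genes. It had 16763, 18089.6, 19418 and 18077 normalized counts in ND and 21242, 21114, 21592 and 22474 in ND+B12. The diabetic libraries had 20380.5, 21459.7, 22487 and 22407 in D and 20428, 19663, 20883 and 18393 in D+B12. The ND libraries were thus the low group, below all ND+B12 and all D libraries, and the D+B12 libraries overlapped with ND and with D but lay below every ND+B12 library. With diabetes Epas1 was higher on the log2 scale by 0.26 in untreated kidneys (SE 0.06, adjusted p = 0.0427 in edgeR), or 1.20-fold, and differed by -0.13 in B12-treated kidneys (SE 0.06, adjusted p = 0.292 in edgeR). With B12 it was 0.26 in non-diabetic kidneys (SE 0.06, unadjusted p = 0.000431, edgeR adjusted p = 0.570) and -0.13 in diabetic kidneys (SE 0.06, adjusted p = 0.360 in edgeR). The interaction was -0.39 (SE 0.08), with an edgeR adjusted p of 0.0589 that fell to 0.000985 in DESeq2. Epas1 was called for the interaction in DESeq2, with the name date and without D 1, and in no other alternative. The call in untreated kidneys was kept in 12 of 26 alternatives, with a log2 fold change between 0.22 and 0.31. It was lost on leaving out any 1 of ND 1, ND 2, ND 3, ND 4, ND+B12 2, ND+B12 3, D 2, D 3, D 4 or D+B12 2, with adjusted p values up to 0.119. The filter of 1 count (0.0681), the replicate block (0.0508), the compared groups alone (0.0935) and the name date (0.311) also gave adjusted p values above the threshold.

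Groups that did not overlap were counted as a second description. In untreated kidneys 2 members, Hif1a and Epas1, had diabetic and non-diabetic libraries that did not overlap, against 9.44% of all genes tested. In B12-treated kidneys these were Epas1 and Car9, against 11.7%, with B12 in non-diabetic kidneys they were Epas1 and Car9, against 4.81%, and with B12 in diabetic kidneys Car9 alone, against 6.58%. With 4 libraries in each group the exact permutation test cannot give a two-sided p below 0.0286, the value reached by each of these.

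Hif3a (chr7:16764918-16796352, - strand, GRCm39) encodes a further alpha subunit, some isoforms of which antagonise the others. It was scarce, with 144, 135, 299 and 62.4 normalized counts in ND, 99.4, 185, 136 and 207 in ND+B12, 173, 204, 171 and 216 in D, and 235, 284, 178 and 285 in D+B12. The highest and the lowest of the 16 libraries were both in ND, and the groups overlapped in all comparisons. With diabetes the log2 difference was 0.26 in untreated (SE 0.34, adjusted p = 0.749 in edgeR) and 0.64 in B12-treated kidneys (SE 0.34, adjusted p = 0.352 in edgeR), and its sign in untreated kidneys changed without ND 4.

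Egln1 (chr8:125635308-125676865, - strand, GRCm39) encodes PHD2, the main prolyl hydroxylase that marks HIF-1α, and was the least variable member. Its group means were 5309.9 ± 429.9 in ND, 5309 ± 281 in ND+B12, 5008 ± 316 in D and 5139 ± 305 in D+B12 normalized counts (SD, n = 4). The ranges of all 4 groups overlapped, within 4558 to 5901. No log2 fold change in the 4 pairwise comparisons was beyond -0.08 (SE 0.07, diabetes in untreated kidneys, edgeR adjusted p = 0.553).

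Egln3 (chr12:54225767-54250673, - strand, GRCm39) encodes PHD3, a hydroxylase that is itself a HIF target and so a feedback arm of the pathway. It had 1636, 1549, 1768 and 2718 normalized counts in ND, 1756, 2559, 2362 and 2992 in ND+B12, 2499.6, 4060.2, 2832 and 2718 in D, and 1928, 1601, 2891 and 2257 in D+B12. ND 1, ND 2 and ND 3 were below every D library, whereas ND 4 was above D 1 and level with D 4 to the nearest count. The log2 fold change with diabetes in untreated kidneys was 0.66 (SE 0.22, unadjusted p = 0.00819, edgeR adjusted p = 0.118), or 1.58-fold, and did not pass the test in edgeR, while the DESeq2 adjusted p was 0.0308. In B12-treated kidneys it was -0.16 (SE 0.22, adjusted p = 0.761 in edgeR), with B12 in diabetic kidneys -0.48 (SE 0.22, adjusted p = 0.345 in edgeR), and the interaction was -0.82 (SE 0.31, adjusted p = 0.204 in edgeR). The sensors therefore differed in spread, with a highest to lowest library ratio of 2.62 for Egln3 against 1.29 for Egln1.

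Vegfa (chr17:46327919-46343309, - strand, GRCm39) encodes the vascular endothelial growth factor that tubule cells and podocytes send to the capillaries. Its normalized counts were 13394, 13814, 12996 and 14122 in ND, 12056, 13156, 13740.3 and 10781 in ND+B12, 13488, 12649, 10759 and 10434 in D, and 11773, 10718, 11411 and 12284 in D+B12. The ND libraries were high as a group, and D 1, at 13488, was the only diabetic library within their range. With diabetes the log2 difference was -0.20 in untreated (SE 0.09, adjusted p = 0.226 in edgeR) and -0.11 in B12-treated kidneys (SE 0.09, adjusted p = 0.553 in edgeR), and over both treatments it was -0.15 (SE 0.06, unadjusted p = 0.0219, edgeR adjusted p = 0.173). D 1 and ND+B12 4, the library that is lowest among the non-diabetic ones at 10781, are those set in the other genotype by the table. Without both, the log2 fold change over both treatments was -0.22 (edgeR adjusted p = 0.0166), the 7 non-diabetic libraries ran from 12056 to 14122 with a median of 13394, and the 7 diabetic libraries ran from 10434 to 12649 with a median of 11411. In that fit 10.2% of 24831 genes were called, so a call was more frequent for all genes. In none of these comparisons was Vegfa higher with diabetes by its point estimate, other than 0.08 in B12-treated kidneys with the name date as covariate.

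Adm (chr7:110226858-110229027, + strand, GRCm39) encodes adrenomedullin, a vasodilator peptide released by hypoxic cells. It had 315, 278, 526 and 317 normalized counts in ND, 355, 342, 361 and 508 in ND+B12, 318, 617, 354 and 366 in D, and 457, 473, 605 and 430.0 in D+B12. In each of ND, ND+B12 and D a single library stood above its 3 neighbours, namely ND 3, ND+B12 4 and D 2. The log2 fold change with diabetes was 0.21 in untreated kidneys (SE 0.23, adjusted p = 0.696 in edgeR), which turned to -0.05 without D 2, and 0.33 in B12-treated kidneys (SE 0.23, adjusted p = 0.496 in edgeR). Adm passed the test in none of the 7 comparisons.

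Bnip3 (chr7:138490690-138511253, - strand, GRCm39) encodes a mitochondrial protein that triggers mitophagy and ranked below Epas1 and Vegfa alone per kilobase. It had 6322, 7136, 7195 and 8158 normalized counts in ND, 6687, 7887, 8016 and 9282 in ND+B12, 7506, 9189.8, 7991 and 8001 in D, and 6363, 6873, 8073 and 7265 in D+B12. All 4 groups overlapped. The log2 fold changes were 0.18 (SE 0.10, adjusted p = 0.367 in edgeR) with diabetes in untreated kidneys and -0.16 (SE 0.10, adjusted p = 0.454 in edgeR) in B12-treated kidneys, and the interaction was -0.34 (SE 0.15, adjusted p = 0.259 in edgeR).

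Ankrd37 (chr8:46449939-46458744, - strand, GRCm39) encodes an ankyrin repeat protein that is a known HIF-1 target. Its normalized counts were 55.5, 87.5, 35.1 and 61.4 in ND, 42.6, 54.6, 42.3 and 80.3 in ND+B12, 52.5, 76.1, 69.3 and 59.3 in D, and 103, 64.4, 98.4 and 79.0 in D+B12. The D+B12 libraries were the high group and overlapped with each other group. The log2 fold change with diabetes was 0.64 in B12-treated kidneys (SE 0.27, unadjusted p = 0.0308, edgeR adjusted p = 0.239) and 0.10 in untreated kidneys (SE 0.27, adjusted p = 0.892 in edgeR). Ankrd37 overlaps Ufsp2 and Lrp2bp on the opposite strand. Each member other than Egln3 overlaps some annotated gene, and the methods take strand from intron motifs in the alignment, which unspliced reads lack. Reads of overlapping genes may therefore be shared.

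Car9 (chr4:43506966-43513729, + strand, GRCm39) encodes carbonic anhydrase IX, a membrane enzyme that hydrates carbon dioxide outside the cell and is widely used as a marker of HIF-1 activity. Its normalized counts were 395, 421, 541 and 439 in ND, 723, 802, 826 and 582 in ND+B12, 807, 343, 445 and 425 in D, and 259, 276, 227 and 236 in D+B12. The D+B12 libraries were below every other library, which held for 0.37% of all genes tested, and the ND+B12 libraries were above every ND library. In B12-treated kidneys the mean was 249 ± 22.1 with diabetes and 733 ± 109.9 without (SD, n = 4), a log2 fold change of -1.56 (SE 0.21, adjusted p = 0.0141 in edgeR), or 2.94-fold lower. In untreated kidneys the log2 fold change was 0.17 (SE 0.21, adjusted p = 0.725 in edgeR), with 505 ± 206 in D and 449 ± 64.2 in ND, and it turned to -0.16 without D 1. The difference between both diabetes effects was -1.73 on the log2 scale (SE 0.29), with an edgeR adjusted p of 0.0521 and a DESeq2 adjusted p of 2.29e-05. The edgeR value was the smallest for the interaction and was shared by 12 genes, among which Car9 ranked 11 by unadjusted p. Car9 was called for the interaction in DESeq2, with the name date (2.96% of genes called) and with the replicate block (0.579%). It was also called without ND 4, ND+B12 1, D 1 or D 2, without both ND+B12 4 and D 1, and without the adipocyte-rich libraries. In the other alternatives it was not called.

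With B12, Car9 was 0.71 higher on the log2 scale in non-diabetic kidneys (SE 0.21, unadjusted p = 0.00333, edgeR adjusted p = 0.570) and -1.02 in diabetic kidneys (SE 0.21, unadjusted p = 0.000178, edgeR adjusted p = 0.0783). The adjusted p in diabetic kidneys ranged from 0.000606 in DESeq2 to 0.415 with the name date as covariate. Both B12 differences rest on the treatment labels in doubt. By the tabulated means the D+B12 libraries are untreated diabetic kidneys, and D 2, D 3 and D 4 are B12-treated ones. Over both treatments the log2 fold change with diabetes was -0.69 (SE 0.15, adjusted p = 0.0233 in edgeR), and Car9 was the only member called there, against 3.02% of genes called, 2.16% lower and 0.862% higher, and against 19.4% of genes and 3 members at the unadjusted level. Without ND+B12 4 and D 1 it was -0.90 (adjusted p = 8.55e-05), with 7 non-diabetic libraries from 395 to 826 and 7 diabetic libraries from 227 to 445, so the ranges overlapped from 395 to 445. Car9 in B12-treated kidneys was called in 20 of 26 alternatives. It was lost without any 1 of ND+B12 2, ND+B12 3, D+B12 1, D+B12 2 or D+B12 3, at log2 fold changes of -1.61 to -1.50 and adjusted p values of 0.0513 to 0.0772, and with the name date as covariate, at -0.95 (adjusted p = 0.309). Over both treatments the call was lost without ND 3, ND+B12 2, ND+B12 3 or D+B12 3, at adjusted p values of 0.0523 to 0.0558, and with the name date as covariate, at -0.24 (adjusted p = 0.808).

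Libraries that share a date allow 2 small comparisons without a difference in date. On the date shared by ND 4 and ND+B12 1, Car9 had 439 and 723 normalized counts and Epas1 18077 and 21242, while Egln3 had 2718 and 1756 and Bnip3 8158 and 6687. On the date shared by ND+B12 2, 3 and 4 and D 1, Car9 had 802, 826 and 582 against 807 and Hif1a 7489, 6186 and 7583 against 7593. For Car9 and Hif1a D 1 was thus close to or within the range of the ND+B12 libraries of its date. D 1 was below that range for Epas1 (20380.5 against 21114 to 22474), Bnip3 (7506 against 7887 to 9282) and Adm (318 against 342 to 508). The remaining members were within it. The tabulated means place both ND 4 and ND+B12 1 with the untreated non-diabetic kidneys, so a difference in treatment is in doubt on their date. They place D 1 with the B12-treated non-diabetic kidneys and ND+B12 4 with the diabetic ones, so a difference in genotype is in doubt on the other date. A single library on one side allows no test, and no date held both diabetic groups.

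At the level of transcripts, 43 transcripts of the members were listed and 27 were tested. The main transcript held 94.6% of the counts for Hif1a, 97.6% for Car9, 98.5% for Bnip3, 83.2% for Vegfa and 52.5% for Ankrd37. Vegfa-202 and Vegfa-207 made up most of Vegfa, and the share of Vegfa-207 was 13.6% ± 2.18 in ND, 11.4% ± 0.806 in ND+B12, 10.8% ± 2.65 in D and 11.7% ± 1.78 in D+B12 (SD, n = 4). No transcript of any gene was called in edgeR over 66503 tested in the 7 comparisons, while 3.7% to 22.2% of the 27 member transcripts (1 to 6) reached an unadjusted p below 0.05 in a comparison against 4.8% to 12.1% of all, and the smallest adjusted p among the members was 0.0639, for Car9-201 with diabetes in B12-treated kidneys.

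Members varied together to different degrees across the 16 libraries, which share groups, dates and the clock state described further on. Egln3 and Bnip3 had the highest correlation of log2 CPM (counts scaled to library size), with a Pearson r of 0.88 over 16 libraries, and 0.88 again after group means were removed. Other pairs changed more when group means were removed. Hif1a and Egln3 had 0.74 before and 0.56 after, Hif1a and Epas1 0.64 and 0.35, Ankrd37 and Car9 -0.71 and -0.58, Car9 and Egln3 0.03 and -0.44, and Vegfa and Epas1 -0.56 and -0.52. The tested gene most like each member was Itga3 for Hif1a (r = 0.94), Mfge8 for Epas1 (0.91), Rrp15 for Hif3a (0.86), Dgkz for Egln1 (0.87), Map3k9 for Egln3 (0.94), Aldh3b3 for Vegfa (0.91), Slc19a1 for Adm (0.90), Gm16439 for Bnip3 (0.94), Etos1 for Ankrd37 (0.86) and Inmt for Car9 (0.94), each over 16 libraries. Next in likeness stood Ehd4 and Slco4a1 for Hif1a, Tamalin and Ppm1d for Epas1, Cyp2f2 and Mast3 for Hif3a, Heatr3 and Tesk1 for Egln1, and Abhd15 and Ypel5 for Egln3. For the targets these were Gm43445 and Mdm4 for Vegfa, Urah and Msi2 for Adm, Gm6532 and Ciart for Bnip3, Gm13567 and Gm12208 for Ankrd37, and Prxl2c and Ngef for Car9.

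**Figure D3:**
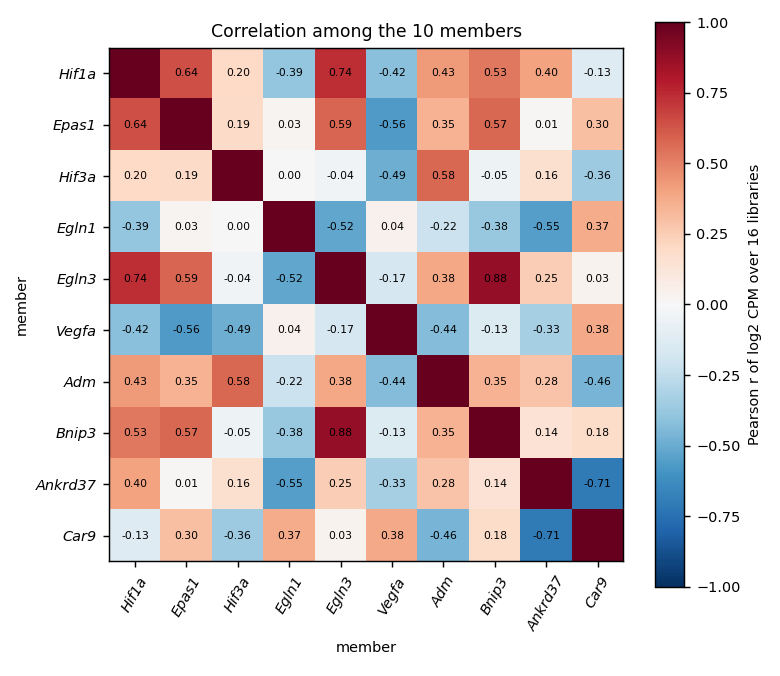
Pearson r of log2 CPM between each pair of members (both axes) over 16 libraries, shown by colour from -1 to 1 and by value. Egln3 and Bnip3 stand out at 0.88, and Ankrd37 with Car9 is the lowest at -0.71.

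Other genes of the pathway were read from 4 lists with 83 genes, all of which were tested. With diabetes in untreated kidneys 59 of the 83 were higher and 24 lower by estimate, with a median log2 fold change of 0.11 against -0.00341 over all genes tested, and 7 were called higher and none lower. The number called was 0 to 16 with 1 library left out, with 0 without ND 2, ND 3 or D 4, 1 without D 2, 2 without ND 1, ND+B12 2 or D 3, 3 without D+B12 2, 12 higher and 1 lower without ND+B12 4, and 15 higher and 1 lower without D 1. It was 0 with the name date, 1 (Flt4) with the compared groups alone, 2 with a filter of 1 count, 3 with the replicate block, and 17 higher and 1 lower in DESeq2. The share of all genes called also moved, from 1.66% at first to 0% without ND 2 or D 4 and 0.00787% with the name date. That share was 2.74% without ND+B12 4, 6.2% without D 1 and 7.83% in DESeq2, so more calls were made among all genes there. Glycolytic targets accounted for 18 of 19 higher and 4 called, with a median of 0.35. These included Hk1, the hexokinase of most tissues, at 0.50 (SE 0.09, adjusted p = 0.0246 in edgeR), and Pfkl, a phosphofructokinase subunit, at 0.51 (adjusted p = 0.0380). The others called were Pdk1, a pyruvate dehydrogenase kinase, at 0.64 (adjusted p = 0.0468 in edgeR), and Aldoc, an aldolase, at 1.26 (SE 0.29, adjusted p = 0.0436). Aldoc ranged from 685 to 2084 normalized counts in D and from 488 to 706 in ND, so these groups overlapped. Among other targets 24 of 35 were higher and Pkm, a pyruvate kinase, was called at 0.57 (edgeR adjusted p = 0.0429).

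Among VEGF and adrenomedullin ligands and receptors 11 of 14 were higher in untreated diabetic kidneys and 2 were called, namely the VEGF receptors Flt4, at 0.50 (SE 0.08, adjusted p = 0.0227 in edgeR), and Flt1, at 0.32 (SE 0.07, adjusted p = 0.0408). Flt4 had 1757 to 1897 normalized counts in D and 1171 to 1364 in ND, with no overlap. HIF partners and oxygen-sensing machinery were 6 higher and 9 lower with none called and a median of -0.04. In B12-treated kidneys 35 of the 83 genes were higher and 48 lower with diabetes, with a median of -0.03, and the single called gene was Os9, a lectin of the endoplasmic reticulum that has been linked to HIF-1α turnover, at -0.28 (SE 0.06, adjusted p = 0.0418 in edgeR). Os9 was called in 9 of 26 alternatives and had an adjusted p of up to 0.155. It was lost with upper-quartile factors, a filter of 1 count, the name date and the replicate block, without the adipocyte-rich libraries, and without any 1 of ND 1, ND 2, ND 3, ND+B12 1, ND+B12 2, ND+B12 3, ND+B12 4, D 4 or a D+B12 library. Next by p were Rora at -0.31, the mitophagy receptor Bnip3l at -0.21, the transcriptional repressor Bhlhe40 at -0.58 and Zfp395 at -0.67, with edgeR adjusted p values of 0.0554 to 0.0919. For glycolytic targets this comparison gave 11 of 19 higher and a median of 0.07, and for the VEGF and adrenomedullin list 1 of 14 higher and a median of -0.16. No pathway gene passed the interaction test in edgeR, where 28 of 83 reached an unadjusted p below 0.05, against 16.1% of all genes. DESeq2 called 7 of the 83 lower, namely Flt1, Flt4, Hk1, Nrp1, Rora, Slc2a1 and Zfp395, among 923 genes in all. Those of smallest p were Hk1 at -0.69 (adjusted p = 0.0554), Flt1 at -0.45, Flt4 at -0.49, Rora at -0.45 and Slc2a1 at -0.60 (adjusted p = 0.0790). Over both treatments Flt4, Loxl2 and Aldoc were called higher, at 0.25, 0.38 and 0.80, and Errfi1 and Os9 lower, at -0.46 and -0.17, with edgeR adjusted p values of 0.0247 to 0.0431. These 5 calls became 0 without ND 3, ND+B12 3 or D+B12 3 and with the name date, 1 without ND 2, ND+B12 2, D 2 or D+B12 1, 2 without ND 1 or ND+B12 1, 3 without D 3, D 4 or D+B12 2 and with the replicate block, 13 without ND+B12 4, and 17 without D 1 and in DESeq2. Over all genes, 3.02% were called at first, 1.15% without ND 3, 0.933% without ND+B12 3 and 0% with the name date. The share was 5.46% without ND+B12 4, 6.79% without D 1 and 8.54% in DESeq2.

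**Figure D4:**
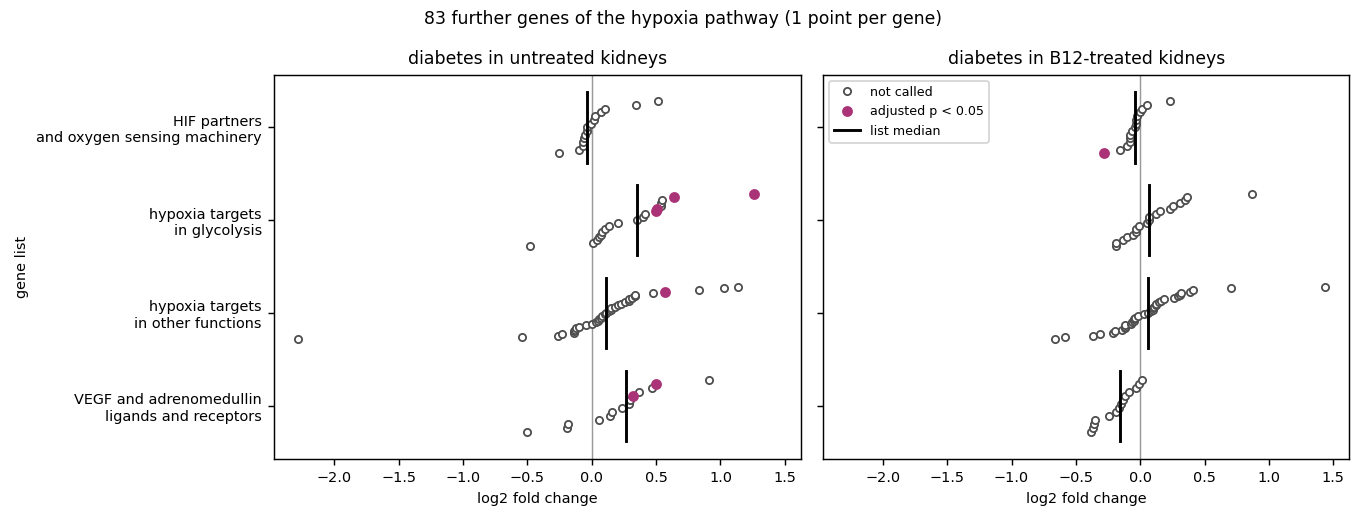
Log2 fold change with diabetes (horizontal axis) of 83 further pathway genes in 4 lists (vertical axis) in untreated (left) and B12-treated kidneys (right); points are genes, filled points have an edgeR adjusted p below 0.05, and black bars are list medians. The glycolysis median is 0.35 in untreated and 0.07 in B12-treated kidneys.

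With B12 in non-diabetic kidneys no pathway gene was called in edgeR. Of the 83 genes, 10 were higher and 2 lower at an unadjusted p below 0.05, against 7.62% of all genes tested. Those of smallest p were Flt4 at 0.29 (SE 0.08), Rora at 0.27 (SE 0.07), Flt1 at 0.24 (SE 0.07), Arnt at 0.16 (SE 0.05) and Kdr at 0.26 (SE 0.08), each with an edgeR adjusted p of 0.570 to 0.585. In diabetic kidneys none was called either, and 3 of the 83 were higher and 19 lower at that unadjusted level, against 13.6% of all genes tested. Those of smallest p were Hk1 at -0.47 (SE 0.09, adjusted p = 0.0742 in edgeR), the glucose transporter Slc2a1 at -0.43 (SE 0.10, adjusted p = 0.0978), P4ha2 at 0.35 (SE 0.10), Zfp395 at -0.60 (SE 0.19) and Pgf at -1.04 (SE 0.33). Over both genotypes Ramp3 at -0.24, Ndrg1 at 0.23, Errfi1 at 0.24, Bhlhe40 at -0.26 and P4ha2 at 0.15 had the smallest p, and none was called. Both B12 comparisons of pathway genes differed in the sign of the list median, at 0.09 in non-diabetic and -0.07 in diabetic kidneys, against 0.00187 and -0.000437 over all genes tested. These comparisons depend on the B12 labels, as described for the label check.

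The doubt on treatment remains in what follows, since the D libraries left are D 2, D 3 and D 4. Leaving out ND+B12 4 and D 1 raised the number of genes called with diabetes in untreated kidneys from 423 to 2127 of 24831 (8.57%) and over both treatments from 767 to 2531 (10.2%). The members called in untreated kidneys were then Hif1a (adjusted p = 0.0138), Epas1 (adjusted p = 0.0102) and Vegfa, the last lower at -0.27 (adjusted p = 0.0364). In B12-treated kidneys Car9 was called at -1.65, with 2.8% of genes called. With B12 in diabetic kidneys Car9 was called lower at -0.69 (edgeR adjusted p = 0.0293), with 0.87% of genes called. Over both treatments Hif1a was higher at 0.28 (adjusted p = 0.0257), Vegfa lower and Car9 lower. Of the 83 pathway genes, 16 were called higher and 5 lower over both treatments, and 18 higher and 1 lower in untreated kidneys, in edgeR. Without the 3 libraries with most adipocyte RNA, 1.95% of 24515 genes were called in untreated kidneys, 0.11% in B12-treated kidneys and 3.7% over both treatments. In that fit Epas1 was the member called in untreated kidneys, Hif1a had an adjusted p of 0.0641, Car9 was called in B12-treated kidneys and over both treatments, and 7 pathway genes were called in untreated kidneys, 6 higher and 1 lower.

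Signs of other cell types and of time of day varied with the groups. The 5 endothelial markers summed to 17474 to 21277 normalized counts in D and 14931 to 16897 in ND, which did not overlap, and all 5 had a positive log2 fold change, although none was called in edgeR. The 3 collecting duct markers summed to 17763 to 38618 in D and 11590 to 15648 in ND, and 2 of 3 were called higher. Over 16 libraries Hif1a correlated with the collecting duct sum at 0.90 and with the endothelial sum at 0.81, and Epas1 with the endothelial sum at 0.66. The part of these cell types in the higher Hif1a, Epas1, Flt1 and Flt4 of the D libraries was not tested, and in whole kidney more cells of a type and more RNA per cell cannot be told apart. The 6 proximal tubule markers summed to 862225 to 897271 in D+B12 and to 970244 to 1086940 in ND+B12, with no overlap. All 6 were lower by estimate with diabetes in B12-treated kidneys, and none was called in edgeR. The 3 thick ascending limb markers summed to 180293 to 210786 in D+B12 and to 202885 to 305966 in ND+B12, which overlapped. With diabetes in B12-treated kidneys 1 of these 3 markers was higher and 2 lower by estimate, and none was called in edgeR. The sum of all 3 correlated with Car9 at 0.60. The 3 B and plasma cell markers summed to 218 to 791 in D and 848 to 3298 in ND, and to 273 to 377 in D+B12 and 712 to 2466 in ND+B12, with no overlap in either pair, and their sum correlated with Car9 at 0.63. The part of these cells in the lower Car9 of D+B12 and in the glycolytic targets was not tested. The 5 adipocyte markers summed to 2157 to 12962, with correlations to members of -0.21 to 0.47.

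The clock gene Bmal1 ranged from 324 to 1115 normalized counts in ND, 226 to 1063 in ND+B12, 230.2 to 324 in D and 567 to 1017 in D+B12, so every library labelled D+B12 was above every library labelled D, a direction that rests on the treatment labels in doubt. Over the 16 libraries Bmal1 correlated with Bnip3 at -0.86 and with Egln3 at -0.78, and Cry2 correlated with Bnip3 at 0.87 and with Egln3 at 0.87. Car9 correlated with Per3 at 0.68 and with Clock at -0.72, while Hif3a, Egln1 and Ankrd37 had an r with Bmal1 of 0.15, 0.24 and 0.01. Cry2 was higher with diabetes in untreated kidneys, at 0.89 on the log2 scale (SE 0.22, unadjusted p = 0.000828), with an edgeR adjusted p of 0.04996 that just passed the threshold. The part of clock state in Egln3, Bnip3 and Car9 was not tested.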

How the data were processed

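Whole kidneys gave total RNA libraries that the authors sequenced as paired 50-base reads, aligned with STAR to GRCm39 (GENCODE annotation) and quantified with StringTie. The values are estimated counts per gene and per transcript deposited by the authors, not scaled between libraries. They were made from coverage by prepDE with a read length that is not given in the sources used here, so a wrong length would scale all counts alike. Totals per library ran from 65271308 to 91771136. Here, genes with a total of at least 100 counts (25408 of 57186) were tested with the edgeR 4.0.16 quasi-likelihood test in R 4.3.3, in 1 fit of 16 libraries and 4 groups with 12 residual degrees of freedom. P-values were adjusted by Benjamini-Hochberg over all genes tested, and a gene was called below 0.05. The 7 comparisons were diabetes within each treatment, B12 within each genotype, each factor over both levels of the other, and their interaction. For display, each count was divided by the size factor of its library (median of ratios), which gives the normalized count. Transcripts were tested likewise (66503 of them). Alternatives were DESeq2 1.42.0, other scalings and filters, the name date, a replicate block, the compared groups alone, each library left out, and both libraries in doubt left out. Leaving out the 3 libraries with most adipocyte RNA was chosen after seeing the data. Members and lists were chosen with earlier results of these data known. All members were named, with the 5 pathway genes of smallest p and every called one per comparison, and the 3 genes most like each member. In counts simulated for diabetes over both treatments on 25408 genes, edgeR recovered 93 of 100 genes changed by 1 on the log2 scale and 99 of 100 changed by 2, with 5.42% false calls. DESeq2 recovered 95 and 99 with 17.4% false calls. Comparisons of 4 libraries against 4 and smaller changes were not simulated, so these rates do not cover them.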

Additional observations from a re-analysis of the deposited data

Results flagged for a closer look

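A single library stood apart from the other 3 of its group in 6 of the 124 groups of 4 examined, and chance flags about 1 in 20 groups. Adm was involved in 3 of them. It had 526 normalized counts in ND 3 against 278 to 317 in the others, 508 in ND+B12 4 against 342 to 361, and 617 in D 2 against 318 to 366. Among the pathway genes Pgf, a VEGF family ligand, had 55.8 in D 4 against 24.6 to 26.7. The prolyl hydroxylase P4ha2 was low in ND 4, at 1705 against 1903 to 1931. Bnip3l had 6159 in D+B12 1 against 5883 to 5929.6.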

How the results depend on the processing

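Replicate numbers did not pair the libraries, since same-numbered libraries of different groups had correlations of deviations between -0.183 and 0.168, and the replicate block is therefore an alternative only. The number of genes called with diabetes in untreated kidneys was 423. It was 1603 in DESeq2, 63 with a filter of 1 count, 2 with the name date, 269 with the replicate block, 242 with the compared groups alone, 2127 without ND+B12 4 and D 1, and 0 (without ND 2) to 1552 (without D 1) with 1 library left out. In B12-treated kidneys 209 genes became 1146 in DESeq2, 18 with upper-quartile factors, 35 with a filter of 1 count, 29 with the name date, 25 with the replicate block, 695 without both libraries in doubt, 27 without the 3 libraries with most adipocyte RNA, and 0 (without ND+B12 2) to 441 (without D 2). Over both treatments 767 became 1832, 427 with the filter, 0 with the date, 478 with the block, 2531 without both libraries, and 235 (without ND+B12 3) to 1700 (without D 1). With B12 in non-diabetic kidneys 0 became 6 in DESeq2, 3 without the adipocyte-rich libraries, and 0 to 2 (without ND 3). In diabetic kidneys 0 became 681 in DESeq2, 204 with the date, 1 with the compared groups alone, 216 without both libraries, and 0 to 69 (without D 1). Over both genotypes it was 6 in DESeq2 and 0 to 0. For the interaction 0 became 923 in DESeq2, 753 with the date, 147 with the block, 87 without both libraries, 11 without the adipocyte-rich libraries, and 0 to 266 (without D 1). Transcripts called rose from 0 to 231, 43, 0, 3, 446, 3 and 4 in the 7 comparisons without both libraries. The cause was not tested.

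With 1 library left out, log2 fold changes that crossed 0 ran, for diabetes in untreated kidneys, from -0.011 to 0.75 (Hif3a), -0.084 to 0.34 (Ankrd37), -0.054 to 0.45 (Adm) and -0.16 to 0.32 (Car9), and in B12-treated kidneys from -0.020 to 0.091 (Hif1a). With B12 in non-diabetic kidneys they ran from -0.29 to 0.47 (Hif3a), -0.041 to 0.059 (Egln1), -0.36 to 0.12 (Ankrd37) and -0.022 to 0.37 (Adm), and in diabetic kidneys from -0.079 to 0.052 (Vegfa). For diabetes over both treatments Bnip3 ran from -0.028 to 0.052. For B12 over both genotypes the ranges were -0.047 to 0.030 (Hif1a), -0.16 to 0.039 (Egln3), -0.063 to 0.017 (Bnip3) and -0.23 to 0.012 (Car9), and for the interaction -0.11 to 0.65 (Hif3a), -0.021 to 0.091 (Egln1) and -0.12 to 0.39 (Adm). None of these was called at first.

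With the name date the sign turned for Vegfa (0.078 with diabetes in B12-treated, 0.099 with B12 in diabetic kidneys, 0.0059 with B12 over both), Egln3 (-0.13) and Bnip3 (-0.20) with diabetes over both, and Hif1a (0.086) and Car9 (0.12) with B12 over both. Without ND+B12 4 and D 1 it turned for Car9 with diabetes in untreated kidneys (-0.15) and with B12 over both (0.056), Adm with B12 in non-diabetic kidneys (-0.024), Vegfa with B12 in diabetic kidneys (0.039) and Ankrd37 with B12 over both (-0.010). Transcripts turned there were Hif1a-201 (0.039), Hif3a-202 (-0.14), Vegfa-202 (0.016), Adm-201 (-0.016) and Car9-201 (-0.099 and 0.030). Without the adipocyte-rich libraries the sign turned for Ankrd37 (-0.014) and Car9 (-0.062) with diabetes in untreated kidneys, Hif3a (0.46) and Vegfa (0.088) with B12, Car9 with B12 over both (0.036), and Hif3a (-0.20), Egln1 (-0.019) and Adm (-0.18) in the interaction. Egln1 with B12 in non-diabetic kidneys gave -8.8e-05 in DESeq2, -0.00014 with median-of-ratios factors, -0.026 with upper-quartile factors and -0.0063 with the compared groups alone.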
